A study of Bos taurus with 8 samples.

Results

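The translation initiation factors (EIF) and elongation factors (EEF) are the proteins that load ribosomes onto messenger RNA and move them along it. Of the 25766 gene names on the array, 60 began with EIF or EEF followed by a digit and were taken as members, each represented by its brightest probe. EIF4E, EIF4EBP1 and EIF2AK3 were left out by the same rule. The members fell by name into 17 EIF2, 13 EIF3, 12 EIF4, 8 EEF and 10 other EIF genes. A probe was kept if the scanner software called it well above background in 6 or more of the 8 channels carrying high-yield cows, or in 6 or more of the 8 carrying low-yield cows. By that measure 56 members were measurable, namely 15 EIF2, 13 EIF3, 12 EIF4, 8 EEF and 8 other EIF genes.

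The RNA came from a single part of the mammary gland of 8 Holstein Friesian cows, healthy and in milk. High milk yield (4 cows) meant an average of 11097 kg per lactation and low milk yield (4 cows) an average of 6956 kg. A cow of each yield, both in the same lactation, made up a pair whose RNAs were hybridised together to a 2-colour Agilent bovine array, with the dyes exchanged on another array. Pairs 1 and 2 were in lactation II on slide 1 and pairs 3 and 4 in lactation IV on slide 2, so lactation and slide cannot be told apart. The labels give no age and name no treatment or engineered allele. The members were therefore compared by the log2 ratio of the high-yield over the low-yield cow, with n = 4 pairs.

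Initiation starts when EIF2, a trimer that binds GTP, brings the initiator tRNA to the small ribosomal subunit. EIF2B recharges EIF2 with GTP, and the EIF2 kinases block that step under stress. EIF3 is a large scaffold on the small subunit, while the EIF4 proteins recognise the cap of the messenger RNA and unwind its leader. EEF1A then delivers each aminoacyl-tRNA and EEF2 moves the ribosome onward, a step that EEF2 kinase slows. In the lactating gland, alveolar epithelial cells devote much of their protein synthesis to caseins and whey proteins.

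The name alone set the groups, and not every member is an initiation or elongation factor. EIF2C1 to EIF2C4 are older names of the Argonaute proteins, which bind small RNAs. EIF2AK1 and EIF2AK2 are EIF2 kinases, EEF2K is the kinase of EEF2, and EIF4ENIF1 carries EIF4E into the nucleus. The 4 members without a measurable probe were EIF2C1, EIF5A2 and the Y-linked names EIF2S3Y and EIF1AY. EIF2S3Y was well above background in 0 of 16 channels and EIF1AY in 1 high-yield and 1 low-yield channel, in female animals.

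The probes behind the results are shown 5′ to 3′, because 1 gene can have several probes and the result depended on which was read. All probes are 60 bases long and each brightest probe shown is given by its first 30 bases. EEF1A1 is shown with 3 of its 9 probes: the probes that start at bases 638 and 660 overlap by 38 bases, and capitals mark the 2 positions at which they differ.
EEF1A1 at base 262: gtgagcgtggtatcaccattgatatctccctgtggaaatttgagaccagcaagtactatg
EEF1A1 at base 638: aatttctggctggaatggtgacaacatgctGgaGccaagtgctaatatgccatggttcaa
EEF1A1 at base 660: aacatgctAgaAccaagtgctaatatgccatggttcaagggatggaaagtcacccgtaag
EIF4A2 at base 162: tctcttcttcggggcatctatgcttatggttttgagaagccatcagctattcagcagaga
EIF4A2 at base 1803, brightest: atcctaggtagggttaaacccccagtaaaa
EIF4A3 at base 1405, its only probe kept: accccagaatgaactctggagatggggcca
EIF4G2 at base 1985: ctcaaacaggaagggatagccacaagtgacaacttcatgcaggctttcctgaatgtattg
EIF4G2 at base 3501, brightest: ttgaagtggtctttgtgggtgtgaaacaaa
EIF4B at base 1411: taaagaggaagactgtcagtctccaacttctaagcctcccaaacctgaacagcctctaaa
EIF4B at base 1932, brightest: aacattcgagagcaaatcaaacctctatcc
EIF2S2 at base 932: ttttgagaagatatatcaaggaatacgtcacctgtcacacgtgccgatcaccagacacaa
EIF2S2 at base 1250, brightest: tggctggttggtctgaaattcttgcaagat
EIF3E at base 1321, brightest: ctcctaactgggcagctcaggactctggct
EEF1E1 at base 1186, its only probe kept: aaagggatgggaaattcccaccgtcccccg
EEF2K at base 2458, brightest: ttttaactcttgaaaatgtctttgctacca

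On the probes' cattle build, Btau_3.1 per the file headers, the EEF1A1 probe at base 638 spans chr9:12615581-12615718, which is 138 bases of genome for a 60-base probe, so its bases are not contiguous there. The brightest EIF4A2 probe lies at chr1:82284476-82284535 (minus strand), and that of EIF4A3 at chr19:53997097-53997156 (plus strand). The brightest probes of EIF4G2 at chr15:40896035-40896094, EIF3E at chr14:54102111-54102170, EEF1E1 at chr23:48253100-48253159 and EEF2K at chr25:21139433-21139492 are on the plus strand. Those of EIF4B at chr5:29882677-29882736 and EIF2S2 at chr13:64338759-64338818 are on the minus strand. No annotation of that build was used here, so exon or UTR status is not stated.

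2 features of the hybridisations bear on every value below. First, the 2 dye-swapped arrays of a pair differed for these genes. Over all probes kept, the high-over-low ratios of the 2 arrays correlated at 0.753, 0.294, 0.668 and 0.260 in pairs 1 to 4, and over the 56 members at 0.285, -0.0927, 0.366 and -0.116 (across genes, which are not independent replicates). The 2 arrays had the same sign for 34, 24, 39 and 24 members in pairs 1 to 4, the last out of 55 with both arrays. Second, both cows of pair 1 stood apart, in opposite directions. The median log2 intensity of the 7 milk protein genes measured was 12.42 in the low-yield cow of pair 1. It ran from 17.6 to 18.05 over her 3 counterparts. In the high-yield cow of pair 1 it was 19.5, and it ran from 16.63 to 16.96 over the other high-yield cows. Results are therefore also given without pair 1, and the part of milk protein output in them was not tested.

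No member passed the test for a difference between high- and low-yield cows. Limma with Benjamini-Hochberg adjustment called 0 of 18122 genes (0% of all), and the members' adjusted p ran from 0.7734 to 0.9986. The unadjusted p was under 0.05 for 3 of 56 members (5.36%), EIF4A3, EIF4G2 and EEF2K, beside 5.43% of all genes. The members' mean ratios ran from -0.48 to 0.65, with 27 above and 29 below 0 and a median of -0.015, against 0.022 over all genes. In 5 of the 56 members (8.93%) the ratio was above 0 in 4 of 4 pairs, beside 9.35% of all genes. In 6 members (10.7%) it was below 0 in 4 of 4 pairs, beside 8.18% of all genes. These shares lie near the background. Without pair 1, the ratio was above 0 in 3 of 3 pairs for 10 members (17.9%; 21.5% of all genes) and below 0 for 12 (21.4%; 17.8% of all genes). The unadjusted p was then under 0.05 for 8 members (14.3%), beside 11.8% of all genes.

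**Figure D1:**
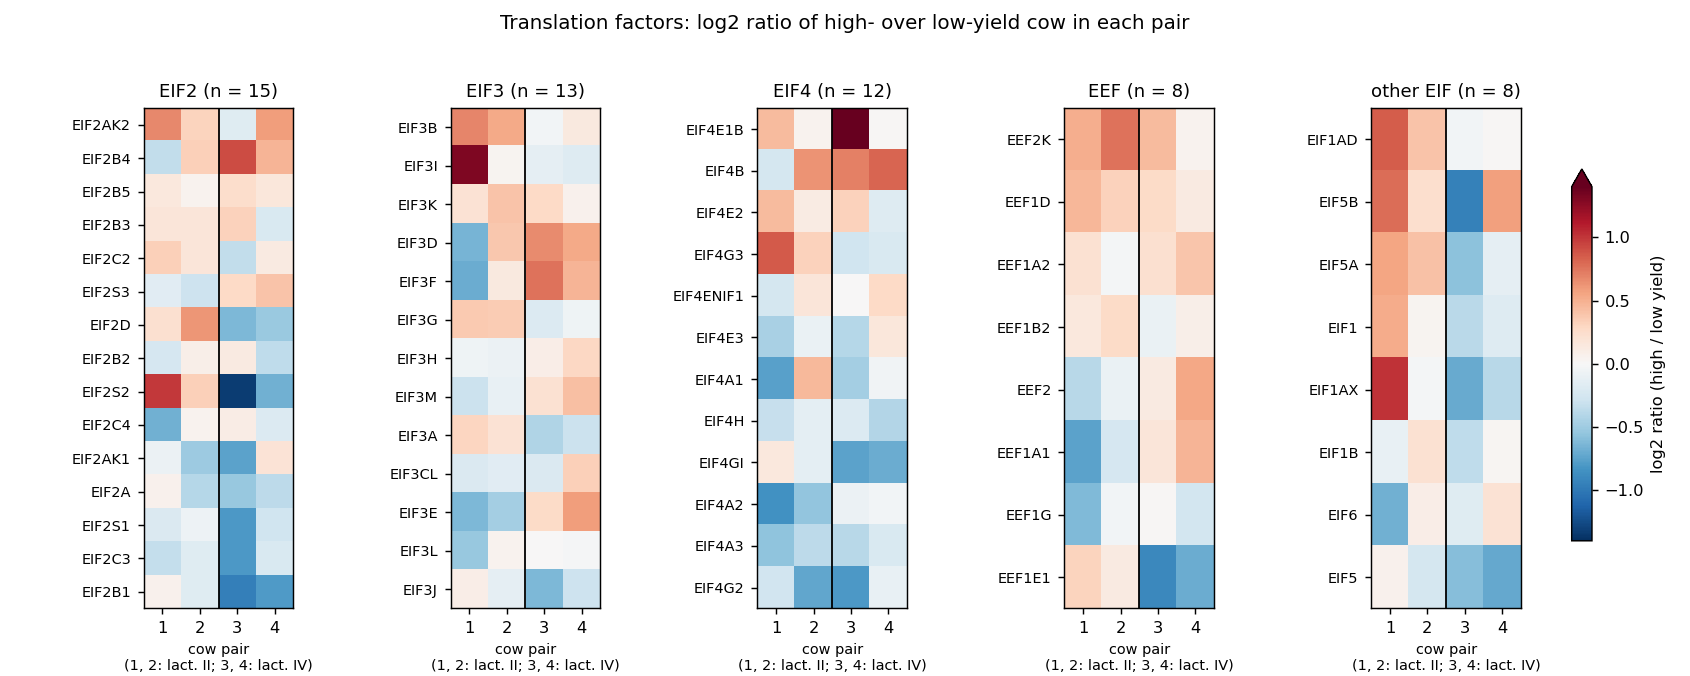
Log2 ratio of the high- over the low-yield cow (colour, red above 0 and blue below) for the 56 measured members (rows, ordered by mean within each group) in cow pairs 1 to 4 (columns; the black line parts lactation II from lactation IV). Few rows keep 1 colour across 4 pairs: 5 are above 0 and 6 below 0 throughout, and the colour scale ends at 1.4, which EIF4E1B in pair 3 exceeds.

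The EIF4 genes held 4 of the 6 members that were lower in every high-yield cow than in her partner. The group median was -0.26, -0.02, -0.23 and -0.07 in pairs 1 to 4, and the median of the 12 mean ratios was -0.204. Of the 12 genes, 5 had a mean above 0 and 7 below, and 4 were below 0 in all pairs (8.18% of all genes) while 1 was above (9.35% of all genes). Without pair 1 the median of means was -0.083, and in the authors' deposited values it was -0.071. There, 1 array each of pairs 2 and 3 had ratios on a compressed scale, with slopes of 0.304 and 0.296 on the ratios used here, against 0.977 to 1.21 for the rest, so medians from it are not on the same scale.

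EIF4A2 encodes a cap-binding-complex RNA helicase closely related to EIF4A1. Its log2 intensity was 14.75, 14.16, 14.08 and 14.06 in the low-yield cows of pairs 1 to 4 and 13.91, 13.6, 14 and 14.02 in their high-yield partners. Every high-yield cow lay below every low-yield cow, though the nearest cows of the 2 groups were only 14.02 and 14.06. The ratios were -0.84, -0.55, -0.08 and -0.04, with a mean of -0.38 ± 0.39 (SD, n = 4) and a limma adjusted p of 0.7734. The ratios were near 0 in the lactation IV pairs, and the mean was -0.224 without pair 1. In those pairs they average opposite signs. The 2 arrays gave 0.156 and -0.315 in pair 3 and -0.469 and 0.394 in pair 4.

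EIF4A3 is the helicase that sits in the exon junction complex on spliced messenger RNA, and it is not part of the cap-binding complex. It measured 10.63, 10.5, 10.44 and 10.48 log2 intensity in the low-yield cows and 10.07, 10.13, 10.05 and 10.26 in the high-yield cows, with no overlap. The ratios were -0.56, -0.36, -0.39 and -0.22, a mean of -0.38 ± 0.14 (SD, n = 4), which is a 1.30-fold lower signal. The unadjusted p of 0.03168 was the smallest of the members, and the limma adjusted p was 0.7734. The 8 arrays differed by dye. Where the high-yield cow was in Cy5 the ratios were -0.39, 0.30, 0.05 and 0.10, and where she was in Cy3 they were -0.73, -1.03, -0.83 and -0.53. The mean was 0.015 over the former arrays and -0.779 over the latter, so the mean was below 0 in 1 dye orientation only.

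EIF4G2 (also known as DAP5) is a relative of the EIF4G scaffold that lacks the cap-binding part and supports cap-independent initiation. It measured 14.37, 14.32, 14.4 and 14.17 in the low-yield cows and 14.09, 13.59, 13.59 and 14.07 in the high-yield cows, again with no overlap. The ratios of -0.27, -0.73, -0.80 and -0.10 gave the lowest mean of the EIF4 group, -0.48 ± 0.34 (SD, n = 4), with an unadjusted p of 0.0416 and a limma adjusted p of 0.7734. All 7 EIF4G2 probes had a mean below 0, from -0.638 at base 2267 to -0.106 at base 1564. The mean was -0.123 over the arrays with the high-yield cow in Cy5 and -0.831 over those with her in Cy3. Its mean was thus below 0 at every probe and in both dye orientations, with differing sizes. Within single pairs the sign was not uniform: 3 of the 7 probes were above 0 in pair 1 and 1 in pair 4. At the brightest probe the arrays with the high-yield cow in Cy5 gave 0.265 in pair 1 and 0.091 in pair 4, and the other arrays were below 0.

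EIF4H, a small partner that stimulates the EIF4A helicase, had ratios of -0.32, -0.13, -0.19 and -0.41 and a mean of -0.26 ± 0.12 (SD, n = 4). Its 4th pair rests on 1 array, since the other spot was an outlier. The cows' levels overlapped, from 11.68 to 12.05 in the high-yield group and from 11.85 to 12.36 in the low-yield group.

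Only 4 members had cows that did not overlap by yield: EIF4A2, EIF4A3 and EIF4G2 below, 5.36% of members beside 2.03% of all genes, and EEF2K above, 1.79% beside 1.03% of all genes.

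**Figure D2:**
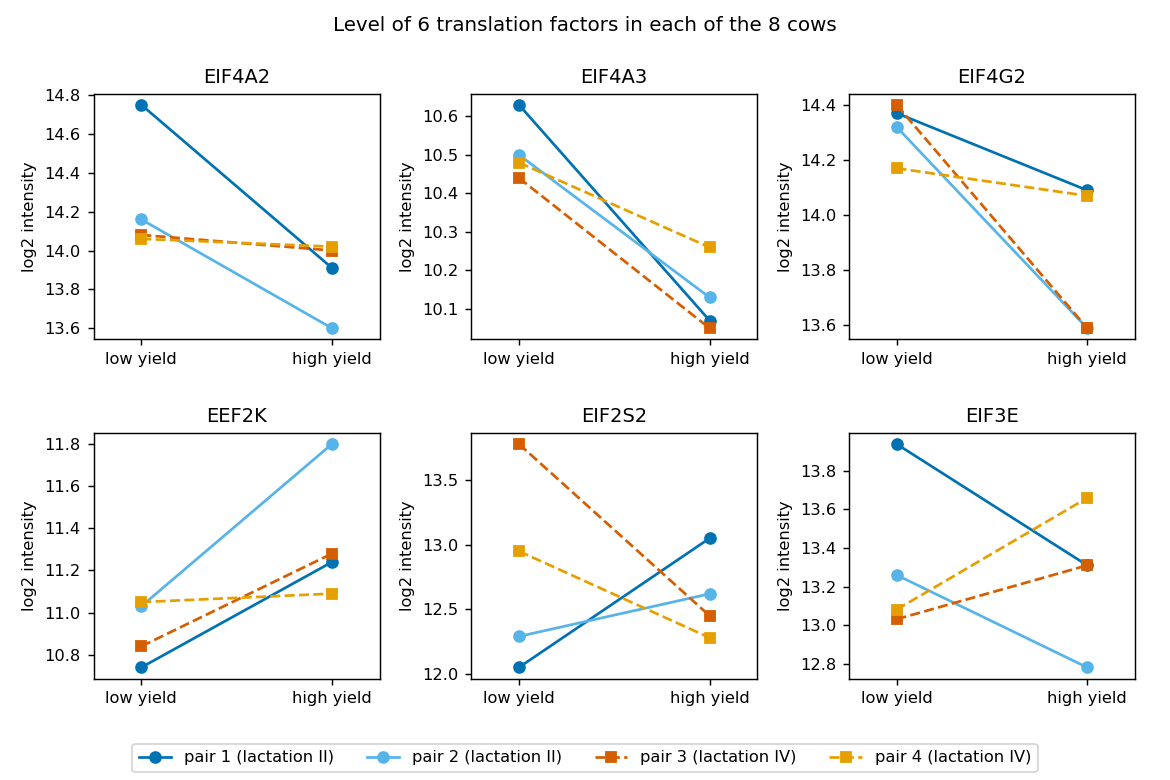
Log2 intensity of 6 members in each of the 8 cows, with a line joining the low- and the high-yield cow of a pair (solid circles, lactation II; dashed squares, lactation IV). The lines of EIF4A2, EIF4A3 and EIF4G2 run down and those of EEF2K run up in all 4 pairs, whereas those of EIF2S2 and EIF3E cross between lactations.

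The other EIF4 genes had no common direction. EIF4B, an RNA-binding cofactor of EIF4A, measured -0.25 in pair 1 and 0.63, 0.71 and 0.81 in pairs 2 to 4, a mean of 0.48 ± 0.49 (SD, n = 4). Its 3 probes agreed in direction, with means from 0.329 to 0.479, and it was among the 8 members with an unadjusted p under 0.05 without pair 1. EIF4E1B, a cap-binding relative best known from oocytes, had the highest mean of all members, 0.65 ± 0.99 (SD, n = 4). That mean came from pair 3 at 2.10, beside 0.44, 0.05 and 0.02 in pairs 1, 2 and 4. The 2 arrays of pair 3 gave 2.22 and 1.99, so the value was not set by 1 array. EIF4GI, the file's name for the scaffold EIF4G1, had ratios of 0.14, -0.14, -0.75 and -0.69. The helicase EIF4A1 had a mean of -0.21, EIF4E3 of -0.20, EIF4ENIF1 of 0.05, and both EIF4E2 and EIF4G3 of 0.17.

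Among the elongation genes, EEF2K stood above 0 in all pairs. Its log2 intensity was 10.74, 11.03, 10.84 and 11.05 in the low-yield cows and 11.24, 11.8, 11.28 and 11.09 in the high-yield cows. The ratios of 0.51, 0.77, 0.44 and 0.05 gave a mean of 0.44 ± 0.30 (SD, n = 4), a 1.36-fold higher signal, with an unadjusted p of 0.04266 and a limma adjusted p of 0.7734. Pair 4 was near 0, and 7 of the 8 arrays were above 0. Its other probe kept, which shares 17 bases with the brightest, gave 0.64, 0.74, 0.39 and 0.10.

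The enzyme's substrate EEF2, the translocase, measured -0.38, -0.09, 0.13 and 0.55, a mean of 0.05 ± 0.39 (SD, n = 4). The mean was 0.442 with the high-yield cow in Cy5 and -0.341 with her in Cy3. Its 7 probes disagreed: 3 had a mean of opposite sign, down to -0.292 at base 1262, and the probe at base 943 gave 0.91 in pair 1. EEF1D, the guanine nucleotide exchange subunit EF-1 delta, was above 0 in all pairs at 0.46, 0.33, 0.27 and 0.13, a mean of 0.30 ± 0.14 (SD, n = 4). Only 2 of its 4 probes read so. The probes at bases 847 and 874, which overlap by 33 bases, had means of 0.346 and 0.298. The probe at base 100 had a mean of -0.012, and that at base 31 of another target sequence had a mean of -0.024. Both were above 0 in pairs 1 and 3 and below 0 in pairs 2 and 4.

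EEF1E1, a small scaffold protein of the multi-tRNA-synthetase complex, had the lowest mean of the elongation group, -0.29 ± 0.60 (SD, n = 4). EEF1G had a mean of -0.22, EEF1B2 of 0.10 and EEF1A2, the muscle and brain form of EEF1A, of 0.20. EEF1A2 was well above background in 6 high-yield and 3 low-yield channels, so its ratio is of a dim spot. It passed the filter through the high-yield channels alone, which favours a ratio above 0. The group median was 0.18, 0.05, 0.15 and 0.10 in pairs 1 to 4, with 5 of 8 means above 0, that of EEF1A2 among them. The median of means, 0.076, was -0.066 with the saddle-point fit of the background and -0.037 over all kept probes.

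EEF1A1, the main carrier of aminoacyl-tRNA, had 9 probes kept, the most of any member. The brightest gave -0.74, -0.23, 0.17 and 0.48 in pairs 1 to 4, a mean of -0.08 ± 0.53 (SD, n = 4), and all 9 probes had a mean below 0. In pair 1 all 9 were below 0, but by very different amounts. The probe at base 262 gave -1.95, and those at bases 638 and 660, whose sequences stand above, gave -1.91 and -1.87. The ratio was -1.78 at base 884, -1.77 at base 977, -1.33 at base 1213 and -1.14 at base 1238. The probe at base 2151 gave -0.66, and the file places it on chromosome 18 while the other 8 lie on chromosome 9. The 9 probes were all above 0 in pairs 3 and 4, at 0.17 to 0.77 and 0.13 to 0.64. These values average arrays that differed by dye. At the brightest probe the 4 arrays with the high-yield cow in Cy5 gave 0.28, 0.86, 1.29 and 1.26, and the 4 with her in Cy3 gave -1.77, -1.33, -0.95 and -0.30, so each pair value is the remainder of 2 opposite signs. In pair 1 the probe at base 262 gave -1.10 and -2.81 on the 2 arrays, with that of the high-yield cow in Cy5 first. The probe at base 1238 gave 0.26 and -2.54, and the probe at base 2151 gave -0.475 and -0.852. Over the 9 probes the first array ran from -1.119 to 0.278 and the second from -3.324 to -0.852, so both varied along the transcript. The 5 probes from base 262 to base 977 were below 0 on both arrays of pair 1.

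EIF4A2 also read furthest from 0 in pair 1 at its first probe, -1.75 at base 162, and nearest 0 at its last, -0.84 at base 1803. The 2 arrays gave -2.01 and -1.49 at base 162, and -0.58 and -1.11 at base 1803. On the second array the probes at bases 1410, 1412 and 1456 gave -1.65, -1.94 and -1.89, further from 0 than the first probe. In pairs 3 and 4 the EIF4A2 probes stayed between -0.23 and -0.03. Such an order of the pair values was not seen over the members as a group. Over the 27 members with probes of 1 transcript at least 500 bases apart, the probe nearest the start minus the probe nearest the end had a median of 0.096 in pair 1, with 10 of 27 below 0. Over the 4473 such genes on the array that median was 0.08.

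**Figure D3:**
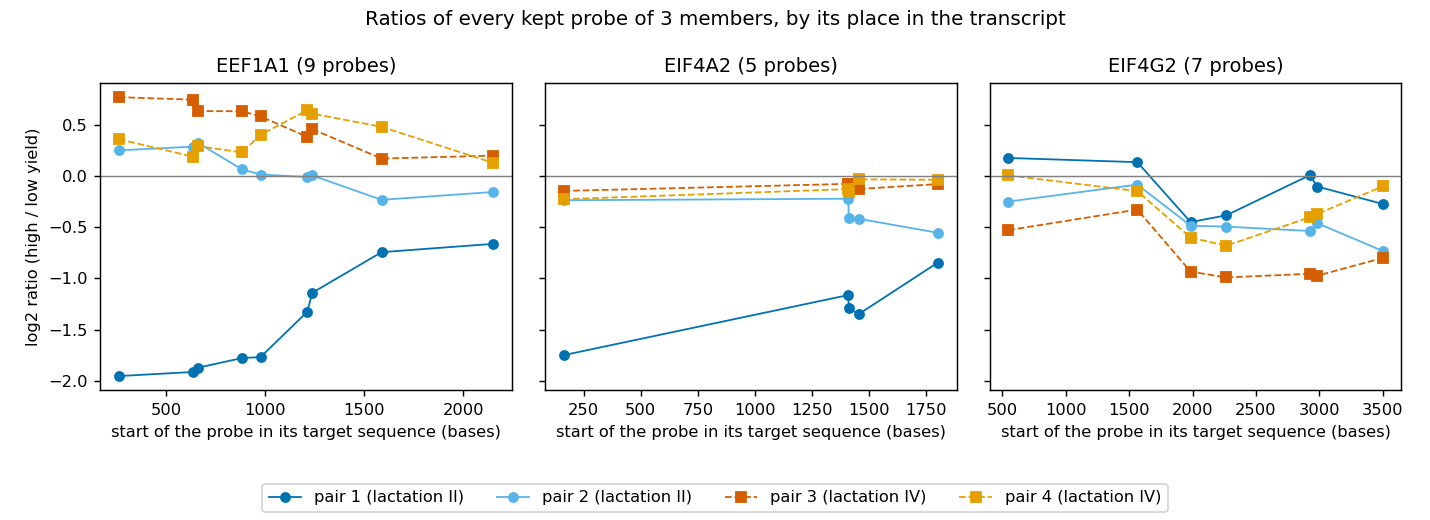
Log2 ratio of the high- over the low-yield cow for every kept probe of EEF1A1, EIF4A2 and EIF4G2 (points, joined in order) against the start of the probe in its target sequence in bases, with 1 line per cow pair. The pair 1 line of EEF1A1 climbs from -1.95 to -0.66 along the transcript, and that of EIF4A2 from -1.75 to -0.84.

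The EIF2 genes leaned below 0 in lactation IV. The group median was 0.06, 0.05, -0.34 and -0.21 in pairs 1 to 4, with 6 of 15 mean ratios above 0 and 9 below. The subunits of the EIF2 trimer differed. EIF2S1, the alpha subunit that the kinases phosphorylate, was below 0 in all pairs at -0.21, -0.07, -0.80 and -0.28, a mean of -0.34 ± 0.32 (SD, n = 4). It was below 0 on 5 of 8 arrays, with opposite signs on the 2 arrays of pairs 1, 2 and 4. Its probe at base 1568 gave 0.099 in pair 2. EIF2S2, the beta subunit, gave 0.99, 0.33, -1.33 and -0.67. EIF2S3, the gamma subunit, gave -0.16, -0.29, 0.28 and 0.40, the opposite order.

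Of the EIF2B exchange factor, all 5 subunits were measured. EIF2B1 had the lowest mean of the group, -0.47 ± 0.49 (SD, n = 4), from 0.06, -0.17, -0.96 and -0.80. EIF2B4 had one of the highest, 0.35 ± 0.52, from -0.35, 0.33, 0.92 and 0.48, and its 3 probes agreed in direction. Its mean was 1.192 over the arrays that had the high-yield cow in Cy5 and -0.50 over those with her in Cy3. EIF2B5 was above 0 in all pairs at 0.15, 0.05, 0.25 and 0.16, but this was an average of opposites. The 4 arrays with the high-yield cow in Cy5 gave 0.73, 0.34, 0.78 and 0.78, and the 4 with her in Cy3 gave -0.43, -0.25, -0.29 and -0.45. EIF2B2 had a mean of -0.09 and EIF2B3 of 0.11.

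The kinase EIF2AK2, which responds to double-stranded RNA, had the highest mean of the group at 0.349, with pairs at 0.67, 0.31, -0.17 and 0.58. That mean was -0.249 with the high-yield cow in Cy5 and 0.946 with her in Cy3, and its other probe had the opposite sign. The heme-regulated kinase EIF2AK1 had a mean of -0.29 and EIF2A, a separate factor that can also deliver initiator tRNA, of -0.31. The Argonaute gene EIF2C3 (AGO3) was below 0 in all pairs at -0.34, -0.16, -0.81 and -0.21, and below 0 on 7 of 8 arrays. Its mean was -0.38 ± 0.29 (SD, n = 4; limma adjusted p = 0.7734). EIF2C2 (AGO2) had a mean of 0.07 and EIF2C4 of -0.18.

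**Figure D4:**
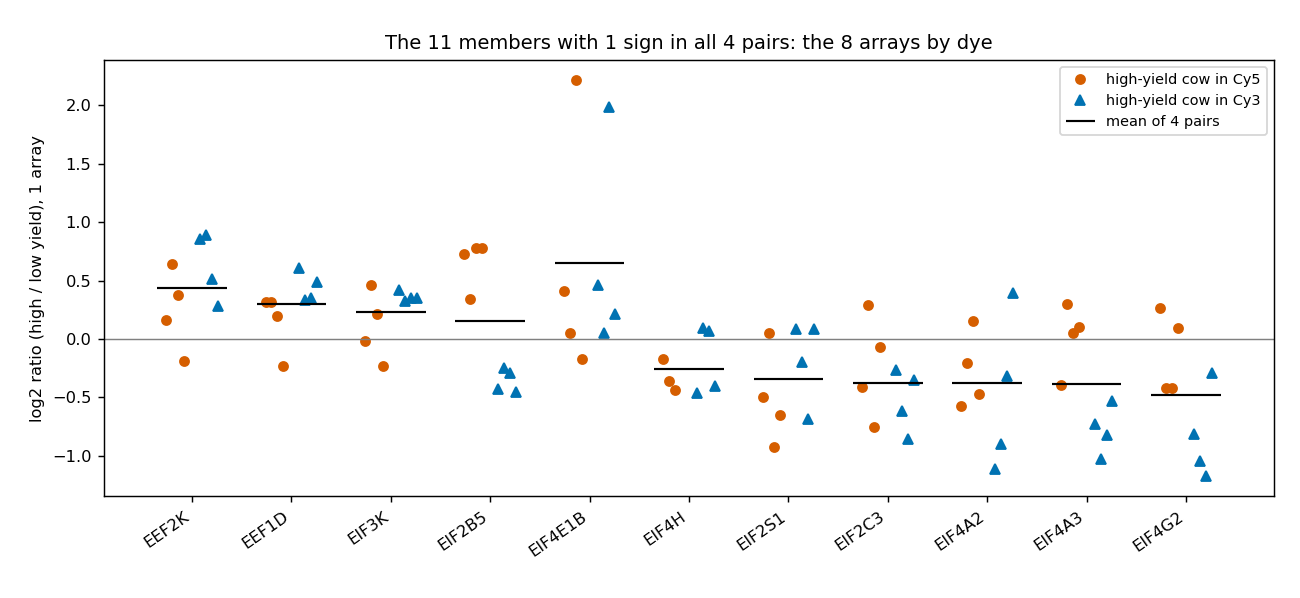
Log2 ratio of the high- over the low-yield cow on each of the 8 arrays (orange circles, high-yield cow in Cy5; blue triangles, high-yield cow in Cy3) for the 11 members with 1 sign in all 4 pairs, with the mean of the pairs as a black line. EIF2B5 splits completely by dye, EIF4A3 nearly so, and no member keeps 1 sign on all its arrays.

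Of the 11 members with 1 sign in every pair, 0 kept that sign on every array measured. The nearest were EEF2K, EEF1D, EIF4E1B and EIF2C3, each with 7 of 8 arrays on 1 side. In 6 of the 56 members (10.7%; 3.53% of all genes) the ratio had 1 sign on all 4 arrays of a dye orientation and the other sign on all 4 of the other: EEF1A1, EIF1B, EIF2B5, EIF3H, EIF4E3 and EIF5.

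The EIF3 subunits, which form a single complex, had no common direction. The group median was -0.06, 0.05, 0.01 and 0.13 in pairs 1 to 4, with 8 of 13 means above 0. EIF3K was above 0 in all pairs at 0.20, 0.40, 0.28 and 0.06, a mean of 0.24 ± 0.14 (SD, n = 4). Its other kept probe, at base 711, overlaps the brightest by 57 bases and gave a mean of 0.253. EIF3B, a core subunit, had the highest mean of the group, 0.33 ± 0.34, but its 3 other kept probes were all below 0, from -0.194 to -0.173. EIF3J, a loosely bound subunit, had the lowest, -0.24 ± 0.30, which was 0.418 over the arrays that had the high-yield cow in Cy5.

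EIF3D, EIF3E and EIF3F shared a low value in pair 1 and high values in pairs 3 and 4. EIF3D gave -0.65, 0.37, 0.66 and 0.53, and EIF3F gave -0.69, 0.14, 0.76 and 0.48. EIF3E gave -0.63, -0.47, 0.27 and 0.58. For EIF3F the 2 arrays of a pair gave 0.34 and -1.73 in pair 1 and 1.095 and -0.136 in pair 4, so its values there average opposite signs. The EIF3D probe at base 508 differed from its brightest, at -0.24, -0.16, -0.20 and 0.58. EIF3I ran the other way, at 1.31 in pair 1 and 0.03, -0.13 and -0.19 in the rest. The remaining subunits had small means: EIF3A -0.06, EIF3CL -0.06, EIF3G 0.11, EIF3H 0.06, EIF3L -0.12 and EIF3M 0.06.

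The median of the other EIF genes varied more between pairs than that of any other group. It was 0.53, 0.16, -0.48 and -0.05, and in pair 3 all 8 lay below 0. EIF1AX, which helps the small subunit scan for the start codon, gave 1.01, -0.03, -0.70 and -0.38. EIF5A, which relieves ribosomes stalled at proline-rich stretches, gave 0.55, 0.41, -0.57 and -0.13. EIF5, the protein that triggers GTP hydrolysis by EIF2, had the lowest mean of the group, -0.37 ± 0.35 (SD, n = 4), from 0.06, -0.25, -0.59 and -0.72, though it was 0.387 over the arrays that had the high-yield cow in Cy3. EIF1AD had the highest, 0.31 ± 0.41, from 0.85, 0.40, -0.03 and 0.02. EIF1, EIF1B, EIF5B and EIF6 had means of -0.0024, -0.05, 0.16 and -0.13, and the 3 other probes of EIF1 had a mean of opposite sign.

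The second comparison set the yield ratio of the lactation IV pairs against that of the lactation II pairs. Limma again called 0 of 18122 genes (0%), and the members' adjusted p ran from 0.6547 to 0.9929. The unadjusted p was under 0.05 for 5 of 56 members (8.93%), beside 7.32% of all genes. Both IV pairs lay above both II pairs in 13 members (23.2%), beside 20.7% of all genes, and both lay below in 21 members (37.5%), beside 20.4% of all genes. Across the 56 members the ratios of pairs 1 and 2 correlated at 0.395 and those of pairs 3 and 4 at 0.545, where each 2 pairs shared a slide, and over all genes at 0.000769 and 0.315. Without pair 1, both IV pairs lay above pair 2 in 13 members (23.2%; 29.2% of all genes) and below it in 27 (48.2%; 32.7% of all genes). The unadjusted p was then under 0.05 for 2 members, EIF2D and EIF2S2 (3.57%), beside 4% of all genes.

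EIF2S2 had the largest difference, -1.66 ± 0.41 (SE; unadjusted p = 0.01259, limma adjusted p = 0.6547). In lactation II the high-yield cows measured 13.05 and 12.62 log2 intensity and their partners 12.05 and 12.29. In lactation IV the high-yield cows measured 12.45 and 12.28 and their partners 13.78 and 12.95. The low-yield cow of pair 3 was the highest of the 8 and that of pair 1 the lowest. Its probe at base 932 gave 0.70, 0.28, -1.32 and -0.79 in pairs 1 to 4, close to the brightest.

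EEF1E1 gave 0.31, 0.13, -0.91 and -0.70, a difference of -1.02 ± 0.29 (SE; limma adjusted p = 0.6547), and the low-yield cows of lactation IV, at 8.498 and 8.611, were the highest of the 8. EIF2D, a factor that can bring tRNA to the ribosome without GTP, gave 0.22, 0.62, -0.63 and -0.52, a difference of -1.001 ± 0.31, and its probe at base 1351 gave -0.004, 0.45, -0.10 and -0.21, with both IV pairs also below both II pairs. EIF2B1 differed by -0.82 ± 0.29, and its probe at base 776 gave -0.32, 0.10, -0.32 and -0.52, with the lactations overlapping. EIF3E differed by 0.98 ± 0.30, and its probe at base 983 gave -0.75, -0.40, 0.39 and 0.64. In EIF3E the high-yield cows measured 13.31 and 12.78 in lactation II and 13.31 and 13.66 in lactation IV, against 13.94 and 13.26, then 13.03 and 13.08, in their partners.

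Pairs of the 2 lactations lay on opposite sides of 0 in 15 members. Lactation IV was the positive side in 6 (10.7%; 7.21% of all genes), EIF2S3, EIF3E, EIF3H, EIF3M, EEF1A1 and EEF2. It was the negative side in 9 (16.1%; 7.85% of all genes), EIF2D, EIF2S2, EIF3A, EIF3G, EIF3I, EIF4G3, EEF1E1, EIF1 and EIF5A. Of these, EEF1A1 and EIF3H are among the members whose arrays split by dye orientation.

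**Figure D5:**
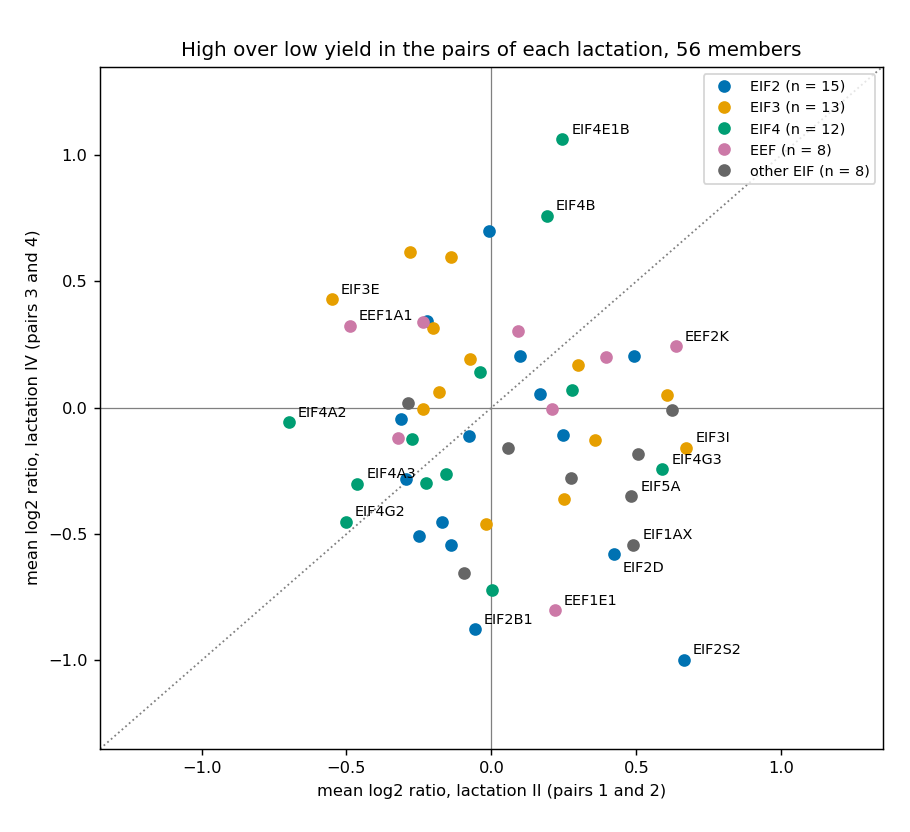
Mean log2 ratio of the high- over the low-yield cow in the lactation IV pairs (vertical axis) against that in the lactation II pairs (horizontal axis) for the 56 members, coloured by group, where the dotted line marks equal ratios. EIF2S2, EIF2D and EEF1E1 lie lower right, EIF3E and EEF1A1 upper left, and EIF4A3 and EIF4G2 near the line below 0.

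Genes that work with these factors had no common direction either. Of 34 genes that bind, modify or regulate translation factors on the array, 33 were measured, 14 with a mean above 0 and 19 below, with a median of -0.123, and 0 passed the limma test with adjustment. The highest was MKNK2, a kinase of EIF4E, at 0.447 ± 0.627, and the lowest GSPT1, the release factor eRF3, at -0.61 ± 0.553 (SD, n = 4). Of 21 genes of the mTOR pathway, which couples nutrients to initiation, 10 were above and 11 below 0, with a median of -0.098 and none passing the limma test. Among them DEPTOR, at 0.198, passed the filter through the high-yield channels alone, which favours a ratio above 0. RPTOR, at -0.103, passed through the low-yield channels alone, which favours a ratio below 0. SESN2 was highest at 0.791 ± 1.111 and RRAGA lowest at -0.40 ± 0.193. The 9 mitochondrial translation factors had a median of -0.128, from -0.253 for GFM2 to 0.276 for TUFM, and 0 passed.

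The tissue markers differed between pairs as well, and their part in the ratios was not tested. In bulk tissue, fewer cells of a type and less RNA per cell cannot be told apart. The 7 milk protein genes had a median ratio of 7.105 in pair 1 and of -1.158, -0.868 and -1.043 in pairs 2 to 4. The 10 luminal epithelium markers had medians of -0.569, -0.197, 0.767 and 0.084 in the 4 pairs, and the 5 erythrocyte markers measured, of 7 listed, had 0.22, 0.567, 1.204 and 1.558. HBB and HBM passed the filter through the high-yield channels alone, which favours a ratio above 0. The 3 erythrocyte markers that passed in both yield groups had medians of 0.22, 0.397, 1.204 and 0.227. The median mean ratio was 0.207 for myoepithelium, 0.076 for adipocyte, 0.203 for fibroblast, 0.298 for endothelium, -0.112 for T and NK cell, 0.331 for B and plasma cell, -0.114 for macrophage and 0.101 for neutrophil markers.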

How the data were processed

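Per the labels' protocols, 1000 ng of total RNA per cow was labelled by linear amplification with Cy3 or Cy5. The deposited scanner files, written by Feature Extraction (version 10.10.1.1) as the file headers say, hold mean spot and median background intensity in both dyes and a log10 ratio. The authors' deposited value table holds log2 ratios and was used only as an alternative. Intensities were background-corrected by normexp (limma 3.58.1, R 4.3.3) with noise from 153 negative control spots per array and an offset of 50, then loess-normalized within arrays with control spots at weight 0. Outlier spots were dropped. For each pair the log2 ratios of both arrays were given the same direction, high over low, and averaged. The 4 pair values were tested against 0 (limma, two-sided, Benjamini-Hochberg over 18122 genes). The lactation difference was tested likewise. The test was checked on simulated data. Cow levels were rebuilt from the ratio and the mean intensity after making the latter equal in distribution over arrays. Of 43653 probes 29867 were kept. Levels of different probes were not compared.

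The brightest probe of each gene name was chosen before the filter. Of 60 names, 45 were matched by accession, 10 by symbol and 2 by older symbol to RefSeq names of ARS-UCD2.0, and 3 kept the file's name. Named members had the highest or lowest mean or the smallest p of their group, 1 sign in 4 of 4 pairs, or an unadjusted p under 0.05. Members and gene lists were chosen with earlier results of these data known. Counts without pair 1, and counts by side of 0 and by dye orientation, were added after seeing the data. Figures were drawn with matplotlib. The sequence of 1 probe is not reported here.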

Additional observations from a re-analysis of the deposited data

Results flagged for a closer look

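Within the EIF3 group, 3 members had 1 cow pair far from the other 3, with a gap to the nearest over the whole range above Dixon's 95% critical value, out of 61 members and group medians examined. Chance flags about 1 in 20 such groups. EIF3I measured 1.312 in pair 1, against -0.186 to 0.033 in the other pairs. EIF3L measured -0.525 in pair 1, against -0.021 to 0.052. EIF3CL measured 0.332 in pair 4, against -0.207 to -0.154.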

How the results depend on the processing

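The yield test called 0 genes under all 18 settings tried, with 445 to 2738 genes at an unadjusted p under 0.05. No member was thus called for yield. For lactation, only the 5 members with an unadjusted p under 0.05 were followed through the settings. Whether other members were among the genes called for lactation was not examined. The lactation test called 0 genes in 12 of 14 settings, 10 genes with median centring in place of loess and 15 without pair 2, with a range of 0 to 15 over the fits that leave out 1 pair. Without a pair in turn, the group medians ran from -0.213 to -0.009 (EIF2), 0.027 to 0.108 (EIF3), -0.269 to -0.083 (EIF4), -0.003 to 0.166 (EEF) and -0.070 to 0.161 (other EIF). The EEF median was -0.066 with the saddle-point fit, 0.015 in the authors' deposited values, 0.199 over the arrays that had the high-yield cow in Cy5, -0.092 over those with her in Cy3, 0.15 within lactation II, 0.222 within lactation IV and -0.037 over all kept probes. The EIF4 median was -0.071 in the authors' values, where 1 array each of pairs 2 and 3 is on a compressed scale, and -0.047 with Cy5 alone. The EIF3 median was 0.252 with Cy3 alone and -0.075 within lactation II.

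Means changed sign in 20 of 377 member results. Over the former arrays alone these were EIF2AK2 at -0.249, EIF1AD at -0.203, EIF3J at 0.418, EIF4A3 at 0.015, EIF2D at 0.00353 and EIF2S2 at 0.385, and over the latter EIF5 at 0.387 and EIF2B5 at -0.357. EIF2B5 was -0.00872 with median centring, and EIF3B was -0.133 as the median of its probes. Over the fits that leave out a pair, EIF3E ran from -0.275 to 0.128 (above 0 without pair 1 or 2), EIF2D from -0.311 to 0.107 (above 0 without pair 3 or 4) and EIF2S2 from -0.554 to 0.219 (above 0 without pair 3). Within lactation II EEF1E1 was 0.219, EIF2D 0.422 and EIF2S2 0.663, and within lactation IV EIF1AD was -0.00787 and EIF3E 0.428. The cause was not tested. The 5 lactation differences kept their sign in all 14 settings. These members were picked by the same comparison, and each had both IV pairs on the same side of both II pairs. Leaving out a pair could therefore not reverse them. Without the pairing of cows (no replicate block) the yield test also called 0 genes, with 750 at an unadjusted p under 0.05. The number of cow pairs, 4 in all and 2 per lactation, limits precision. Means of EIF4G2, EIF4A2, EIF4H, EIF2C3, EIF2S1, EIF2B1, EEF2K, EEF1D, EIF3K and EIF4E1B kept their sign in every setting run. All but EIF2B1 had 1 sign in 4 of 4 pairs, so fits without a pair or within 1 lactation could not reverse them. Settings that change the filter, add the slide or drop the pairing reuse the same pair values and could not reverse any of them.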
